A study of Mus musculus with 6 samples.

Results

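A set of 10 genes of the spindle assembly checkpoint and of the step that it controls, the start of anaphase, was followed in testis RNA of KIFC1 knockout mice. They were chosen by name: Ttk, Mad1l1, Mad2l1, Bub1, Bub1b and Bub3 of the checkpoint, Cdc20, the activator of the anaphase-promoting complex (APC/C), Pttg1 and Espl1, which encode securin and separase, and Sgo2a, which encodes the cohesin protector shugoshin 2. All 10 were found by symbol (GENCODE M21) among the 51826 genes of the count tables, and all 10 passed the filter on low counts. Testis RNA of 8-week-old C57BL/6J mice was sequenced in bulk in 2 groups of 3 samples, KIFC1 knockout (KO1, KO2 and KO3) and wild type (WT1, WT2 and WT3). How the knockout allele was made, and whether each sample came from its own animal, is not given in the sources used here. The p-values therefore cover only the variation among these libraries, part of which may be technical.

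In a dividing cell, kinetochores that are not attached to spindle microtubules recruit the checkpoint proteins, which assemble an inhibitor from MAD2, BUBR1 and BUB3 that holds CDC20. Once all chromosomes are attached, CDC20 is freed, the APC/C marks securin and cyclin B for destruction, and separase cuts cohesin. In spermatocytes this happens at both meiotic divisions, and shugoshin 2 shields the cohesin at centromeres from separase in the first of them. KIFC1 is a minus-end-directed kinesin that bundles spindle microtubules and focuses spindle poles.

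Levels are given in counts per 1000000 counts, scaled by TMM (CPM), and differences as log2 fold changes of knockout over wild type with a standard error (SE). The libraries held 29274603 to 38703606 counts, so that 3 counts, the floor for counting error alone, correspond to at most 0.102 CPM. Kifc1 itself had 0.326, 0.737 and 0.282 CPM in KO1, KO2 and KO3 and 15.5, 16.1 and 14.7 CPM in WT1, WT2 and WT3. Its mean was 0.448 ± 0.251 CPM in knockout and 15.5 ± 0.708 CPM in wild type (SD, n = 3 each; log2 fold change -5.09, SE 0.35, edgeR adjusted p = 0.00378). Its close paralog Kifc5b, with 4.77 ± 1.84 CPM in knockout and 9.07 ± 0.568 CPM in wild type, can share reads with it. The libraries differed in base composition. The deviation of each library from the mean of all 6 correlated across 12693 genes with exon GC content at a Spearman rho of -0.679 to -0.129 in the knockout libraries and of 0.271 to 0.534 in the wild-type libraries, with KO2 at the low end. Mitochondrial genes held 1.54% to 5.74% of counts in knockout, with KO2 lowest, and 0.661% to 0.935% in wild type. The differences of the 10 genes and of the pathway genes named are therefore also given after correction of every library for GC content and exon length, written as after correction from here on. That of Kifc1 was then -4.71 (edgeR adjusted p = 0.0159).

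Of the 10 genes, 2 fell and 1 rose in knockout testis. Cdc20 fell most, to 41.5% of the wild-type level, Espl1 fell, and Sgo2a rose, while none of the 6 checkpoint genes passed the test. Over all 21518 genes tested, 8.23% were called by the same rule (edgeR quasi-likelihood test, adjusted p under 0.05), 3.11% as higher and 5.12% as lower. The median log2 fold change was -0.11 for the 10 genes and -0.01 for all genes tested, or -0.18 and 0.01 after correction. DESeq2 called the same 3 genes, with 17.3% of all genes it tested called, 8.05% as higher and 9.22% as lower. After correction for GC content and length, edgeR called 0 of the 10 genes and 0.0837% of all genes, 0.0186% as higher and 0.0651% as lower. At an unadjusted p under 0.05, 3 of the 10 passed before correction (Cdc20, Espl1 and Sgo2a), with 27.1% of all genes. After it 3 passed (Cdc20, Espl1 and Bub3), with 22.3% of all genes. Without KO2 the same 3 genes were called as with all samples, and 14.3% of all genes were called, 6.62% as higher and 7.69% as lower. Only Cdc20 was called without WT3, where 1.93% of all genes were called. By edgeR 0 of the 10 were called without KO1, KO3, WT1 or WT2, where the calls over all genes fell away too, to 0.00454%, 1.47%, 0.0226% and 0.00452% in that order. Fewer cells of a type and less RNA per cell cannot be told apart in such bulk samples.

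The promoters of the 3 called genes are shown with short elements marked. Whether these elements bear on the differences in level was not tested. The sequences are RefSeq promoters (GRCm38.p6), given 5′ to 3′ for the 250 bases before the annotated start. Capitals mark TTTGAA, the core of the cell cycle homology region found in many genes of mitosis, and CCAAT, the box bound by the factor NF-Y, each on either strand.
Cdc20 (chr4:118437344-118437593, minus strand): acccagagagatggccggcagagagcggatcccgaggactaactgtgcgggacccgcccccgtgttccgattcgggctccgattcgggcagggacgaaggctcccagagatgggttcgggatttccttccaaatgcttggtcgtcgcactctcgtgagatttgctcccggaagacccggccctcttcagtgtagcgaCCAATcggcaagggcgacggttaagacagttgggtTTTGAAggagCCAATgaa
Espl1 (chr15:102296043-102296292, plus strand): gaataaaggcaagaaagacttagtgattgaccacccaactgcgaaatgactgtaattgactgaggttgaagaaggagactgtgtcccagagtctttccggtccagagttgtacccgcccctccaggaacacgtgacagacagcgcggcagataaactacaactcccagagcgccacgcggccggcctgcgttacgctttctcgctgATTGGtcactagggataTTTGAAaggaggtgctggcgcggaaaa
Sgo2a (chr1:57995724-57995973, plus strand): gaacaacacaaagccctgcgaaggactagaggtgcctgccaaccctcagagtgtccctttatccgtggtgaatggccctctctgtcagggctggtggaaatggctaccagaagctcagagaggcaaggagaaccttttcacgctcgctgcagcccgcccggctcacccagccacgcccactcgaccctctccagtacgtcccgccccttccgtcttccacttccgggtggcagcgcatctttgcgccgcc

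In Cdc20, TTTGAA began at position -18 and CCAAT at -53 and -8, counted back from the start at -1. In Espl1, TTTGAA began at position -27 and CCAAT, on the other strand, at -44. The printed Sgo2a promoter held neither, while a more distal RefSeq start of Sgo2a had a CCAAT at -194. Over 32851 RefSeq promoters cut to the same 250 bases, 16.0% held TTTGAA, 33.8% held CCAAT and 5.55% held both. The 10 genes had 13 such promoters, of which 4 held both elements, 1 each of Cdc20 and Espl1 and 2 overlapping ones of Bub3. TTTGAA was in these 4 and CCAAT in 8 of the 13. In Bub3, whose test was not passed, the elements stood at -43 (TTTGAA, other strand), -74 and -32 (CCAAT) of one of its starts. The other promoters with CCAAT were 1 each of Bub1, Bub1b, Sgo2a and Ttk. Only these exact letters were searched, so other forms of the elements were not counted. A match describes letters only and does not show that a factor binds there.

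The kinases at the top of the checkpoint did not pass the test. Ttk encodes MPS1, the kinase that starts checkpoint signalling at kinetochores. It stood at 56.4, 66.3 and 54.1 CPM in KO1, KO2 and KO3 and at 55.3, 47.9 and 44.0 CPM in WT1, WT2 and WT3. Knockout samples lay mostly higher, but the lowest of them was below WT1. Its log2 fold change was 0.26 (95% interval -0.09 to 0.62, edgeR adjusted p = 0.316), and 0.10 after correction.

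Bub1 encodes the kinase that brings shugoshin to centromeres and is a platform for other checkpoint proteins. Its level was 67.7, 79.6 and 70.2 CPM in KO1, KO2 and KO3 and 75.5, 69.1 and 58.9 CPM in WT1, WT2 and WT3, with overlapping groups. The log2 fold change of Bub1 was 0.10 (95% interval -0.25 to 0.44, edgeR adjusted p = 0.728) and turned to -0.21 after correction.

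The gene of MAD1 and those of MAD2, BUBR1 and BUB3, which form the inhibitor, did not pass the test either. Mad1l1 encodes MAD1, which holds MAD2 at the kinetochore. It stood at 34.3, 24.4 and 40.2 CPM in KO1, KO2 and KO3, a spread that enclosed the 36.5, 34.2 and 30.8 CPM of WT1, WT2 and WT3. For Mad1l1 the log2 fold change was -0.04 (95% interval -0.49 to 0.42, edgeR adjusted p = 0.93), and 0.27 after correction. It has 55.5% exon GC, close to the 55.2% of Cdc20 and the 54.2% of Espl1.

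Mad2l1 encodes MAD2, which binds CDC20 directly. Its level was 18.5, 17.5 and 18.1 CPM in KO1, KO2 and KO3 and 14.7, 15.2 and 11.4 CPM in WT1, WT2 and WT3. Every knockout sample was above every wild-type sample. At a log2 fold change of 0.38 (95% interval -0.02 to 0.79), Mad2l1 did not pass the test (edgeR adjusted p = 0.201). It was 0.01 after correction, at 40.7% exon GC.

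Bub1b encodes BUBR1, the part of the inhibitor that blocks the APC/C as a false substrate. It stood at 70.5, 74.5 and 70.8 CPM in KO1, KO2 and KO3 and at 84.3, 79.7 and 80.4 CPM in WT1, WT2 and WT3. The groups did not overlap, with the knockout samples lower, but the log2 fold change of -0.18 (95% interval -0.47 to 0.11, edgeR adjusted p = 0.406) did not pass the test. It was -0.15 after correction, with an exon GC content of 49.0%.

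Bub3 encodes the adaptor that ties BUB1 and BUBR1 to kinetochores. The knockout samples were split, with 39.4 and 40.5 CPM in KO1 and KO2 and 67.7 CPM in KO3, against 75.3, 64.1 and 63.7 CPM in WT1, WT2 and WT3. KO3 therefore lay within the wild-type range. Bub3 had a log2 fold change of -0.46 (95% interval -0.97 to 0.05, edgeR adjusted p = 0.225). It was -0.65 after correction (edgeR adjusted p = 0.17), and without KO3 it was -0.74 (edgeR adjusted p = 0.0637). Its span lies within that of Fgfr2 on the other strand, which had 179, 140 and 65 counts in KO1, KO2 and KO3 and 38, 126 and 98 counts in WT1, WT2 and WT3.

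Of these 10 genes, 5 had groups that did not overlap in CPM, namely Bub1b, Mad2l1, Cdc20, Espl1 and Sgo2a. The groups did not overlap for 32.7% of all genes tested.

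**Figure D1:**
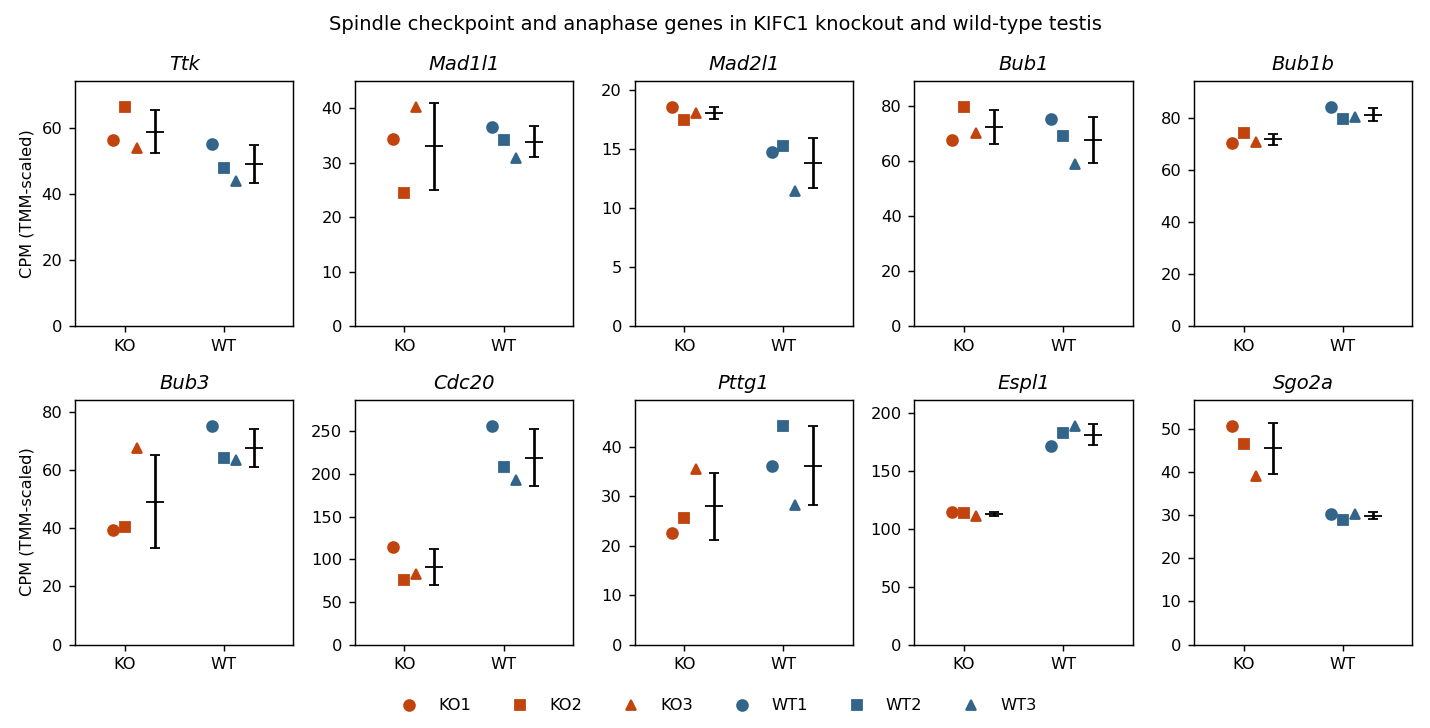
Level of each of the 10 genes in CPM (TMM-scaled, linear axis from 0) in the 3 KIFC1 knockout (KO, left) and 3 wild-type (WT, right) testis samples, with the mean and SD beside each group. Cdc20 and Espl1 lie lower in every knockout sample, with means of 91.1 ± 20.8 CPM in KO and 219 ± 33.3 CPM in WT for Cdc20 and of 113 ± 1.84 CPM in KO and 181 ± 9.05 CPM in WT for Espl1, and Sgo2a lies higher, at 45.4 ± 5.87 CPM in KO and 29.8 ± 0.837 CPM in WT.

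Cdc20 is both the target of the checkpoint and the activator through which the APC/C recognises securin and cyclin B. Cdc20 (ENSMUSG00000006398, chromosome 4, 118432901 to 118437352, minus strand, GRCm38, protein-coding) had 114.9, 76.2 and 82.2 CPM in KO1, KO2 and KO3, from 4229, 2686 and 2627 counts. It had 256.7, 208.2 and 193.0 CPM in WT1, WT2 and WT3, from 8743, 8182 and 5872 counts. The highest knockout sample, KO1, was well below the lowest wild-type sample, WT3. The log2 fold change of Cdc20 was -1.27 (SE 0.20, edgeR adjusted p = 0.0161), a level of 41.5% of that in wild type.

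After correction for GC content and length, the log2 fold change of Cdc20 was -0.90 (SE 0.19, 95% interval -1.33 to -0.48, edgeR adjusted p = 0.0688), or 53.5% of the wild-type level. The call was also lost without KO1, KO3, WT1 or WT2, with edgeR adjusted p values of 0.0822, 0.0532, 0.0596 and 0.0885, and kept without KO2 (0.0136) or WT3 (0.0462). Without KO2 and after correction it passed the test (log2 fold change -0.84, edgeR adjusted p = 0.0399, where 13.2% of all genes were called, 6.95% as higher and 6.27% as lower). After correction and without any other single sample, Cdc20 missed the threshold (edgeR adjusted p 0.124 to 0.22), where at most 3 of all genes were called. These settings were added after the data were seen. Cdc20 shares 53 bases at its end with Elovl1 on the other strand, which had 158, 164 and 189 counts in KO1, KO2 and KO3 and 102, 111 and 171 counts in WT1, WT2 and WT3. Its nearest copy, the processed pseudogene Gm7856 (93.7% identical over 1512 bases), held 2 to 8 counts in every sample, knockout and wild type alike, so that reads placed there were few beside those of Cdc20.

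Securin and separase, the inhibitor and the protease that it restrains, differed in their calls, and the difference between them was tested only as a ratio. Pttg1, the securin gene, had 22.7, 25.6 and 35.6 CPM in KO1, KO2 and KO3 and 36.2, 44.3 and 28.2 CPM in WT1, WT2 and WT3. KO3 stood above WT3, and the groups overlapped. For Pttg1 the log2 fold change was -0.37 (95% interval -0.89 to 0.14, edgeR adjusted p = 0.329), and -0.43 after correction.

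Espl1 (ENSMUSG00000058290, chromosome 15, 102296266 to 102324357, plus strand, protein-coding) encodes separase. It had 114.1, 113.4 and 110.6 CPM in KO1, KO2 and KO3, from 4200, 4001 and 3536 counts. It had 170.8, 182.6 and 188.6 CPM in WT1, WT2 and WT3, from 5819, 7177 and 5739 counts. The 3 knockout samples were nearly equal, and all lay far below the wild-type samples. For Espl1 the log2 fold change was -0.68 (SE 0.13, edgeR adjusted p = 0.0206), a level of 62.4% of that in wild type.

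The difference of Espl1 was smaller, at -0.48 (SE 0.14, 95% interval -0.80 to -0.16, edgeR adjusted p = 0.108), after correction for GC content and length. The call of Espl1 was kept without KO2 (edgeR adjusted p = 0.0142) and lost without any other single sample (0.0634 to 0.107). Without KO2 and after correction Espl1 passed the test (log2 fold change -0.59, edgeR adjusted p = 0.0217). After correction and without any other single sample it missed the threshold (edgeR adjusted p 0.167 to 0.357).

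Sgo2a (ENSMUSG00000026039, chromosome 1, 57995971 to 58025899, plus strand, protein-coding) encodes the shugoshin that protects centromeric cohesin in meiosis I. It had 50.7, 46.6 and 39.1 CPM in KO1, KO2 and KO3 and 30.3, 28.8 and 30.2 CPM in WT1, WT2 and WT3. The wild-type samples were tightly grouped and every knockout sample was above them. For Sgo2a the log2 fold change was 0.61 (SE 0.16, edgeR adjusted p = 0.0466), or 1.52-fold.

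After correction for GC content and length the log2 fold change of Sgo2a was 0.23 (95% interval -0.08 to 0.54, edgeR adjusted p = 0.353), and its exon GC content is 40.2%. The adjusted p passed the threshold without KO2 (0.0473) and missed it without any other single sample (0.0615 to 0.192), with library size as the scaling (0.0805) and with no filter (0.0758). Its span overlaps Kctd18 on the other strand, with 2363 bases shared between transcripts, so its level is uncertain where reads cannot be assigned to a strand. Kctd18 stood at 10.5 ± 1.40 CPM in knockout and 12.1 ± 0.493 CPM in wild type (log2 fold change -0.20, edgeR adjusted p = 0.522). After correction Kctd18 was at -0.58 (95% interval -0.97 to -0.18, edgeR adjusted p = 0.113). The paralog Sgo2b (88.0% identical over 3862 bases) held 0 counts in each knockout library and 0, 4 and 0 counts in WT1, WT2 and WT3.

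**Figure D2:**
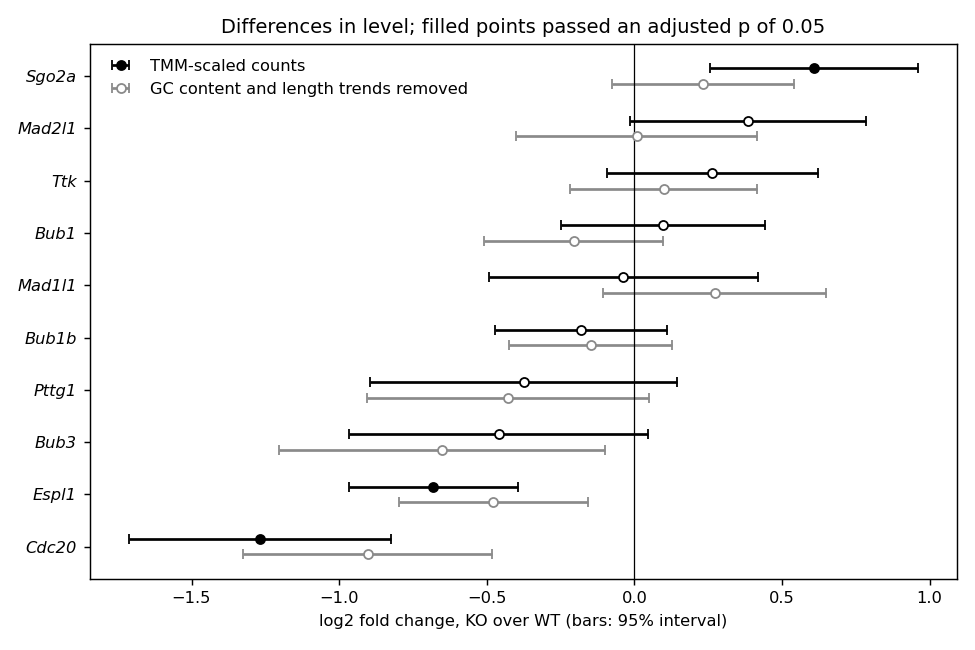
Log2 fold change of knockout over wild type for each of the 10 genes with its 95% interval, from TMM-scaled counts (black) and after correction for GC content and length (grey). Filled points passed an edgeR adjusted p of 0.05, and only Cdc20 (-1.27), Espl1 (-0.68) and Sgo2a (0.61) were filled, all 3 in black.

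Base composition moved with these calls. Of 8626 tested genes with 50 to 60% exon GC, the range that holds Cdc20, Espl1 and Mad1l1, 9.65% were called lower and 0.301% higher. Of 5912 tested genes with 35 to 45% exon GC, the range that holds Sgo2a, Bub1, Mad2l1, Bub3 and Ttk, 0.237% were called lower and 8.02% higher. The log2 fold changes after correction kept their sign for Cdc20, Espl1 and Sgo2a, at -0.90, -0.48 and 0.23.

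Per length, Cdc20 was the most abundant of the 10 mRNAs in both groups and Mad2l1 the least. In CPM per kilobase of annotated exon, the order in knockout was Cdc20 (48.8 ± 11.2), Bub1b (16.8 ± 0.527), Bub1 (16.6 ± 1.44), Pttg1 (14.0 ± 3.40), Espl1 (12.9 ± 0.210), Ttk (12.0 ± 1.32), Mad1l1 (9.04 ± 2.18), Bub3 (7.03 ± 2.28), Sgo2a (6.48 ± 0.838) and Mad2l1 (2.15 ± 0.0618). From Bub1b to Sgo2a, each gene overlapped the next in its sample values. In wild type the order was Cdc20 (117 ± 17.8), Espl1 (20.7 ± 1.03), Bub1b (19.1 ± 0.581), Pttg1 (18.1 ± 4.03), Bub1 (15.6 ± 1.93), Ttk (9.98 ± 1.16), Bub3 (9.66 ± 0.942), Mad1l1 (9.27 ± 0.789), Sgo2a (4.25 ± 0.119) and Mad2l1 (1.64 ± 0.248). There the neighbours that did not overlap were Cdc20 and Espl1, Bub1 and Ttk, Mad1l1 and Sgo2a, and Sgo2a and Mad2l1. Espl1 ranked 5 in knockout and 2 in wild type. The exon length counts every annotated isoform. Per kilobase of the longest principal transcript, Cdc20 stayed at rank 1 and Mad2l1 at rank 10 in both groups. Espl1 then ranked 7 in knockout and 4 in wild type, and Bub3 ranked 3 in both. For Mad2l1 that transcript has 7557 bases, close to its exon length of 8390 bases. It is therefore hardly a separate check of the rank of Mad2l1, which depends on this length.

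Ratios of partners within a sample do not depend on how libraries are scaled. The ratio of Cdc20 to Mad2l1, the activator to its inhibitor, in counts per exon kilobase, was 27.9, 19.6 and 20.4 in KO1, KO2 and KO3 and 78.2, 61.5 and 76.0 in WT1, WT2 and WT3. It was lower in 3 of 3 knockout samples than in any wild-type sample, by -1.68 on the log2 scale (means 4.48 ± 0.278 in knockout and 6.16 ± 0.190 in wild type), or 0.313-fold. The size of this ratio in a sample depends on the exon lengths used, 1868 bases for Cdc20 and 8390 bases for Mad2l1. The difference between the groups does not, at -1.68 also without division by length. The ratio of Espl1 to Sgo2a, the protease to the protector of its substrate, was 1.80, 1.95 and 2.27 in KO1, KO2 and KO3 and 4.51, 5.07 and 4.996 in WT1, WT2 and WT3. It was also lower in 3 of 3 knockout samples, by -1.28 on the log2 scale, or 0.412-fold. In both pairs the first gene was lower and the second higher in every knockout sample than in any wild-type sample. The separation of these ratios therefore restates the differences of the single genes and is no further support for them. The ratio of Espl1 to Pttg1, the protease to its inhibitor, was 1.15, 1.01 and 0.710 in KO1, KO2 and KO3 and 1.08, 0.943 and 1.53 in WT1, WT2 and WT3. Its groups overlapped, with a log2 difference of -0.30.

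The two-sided exact permutation test gave p = 0.1, 0.1 and 0.5 for these 3 ratios of Cdc20 to Mad2l1, Espl1 to Sgo2a and Espl1 to Pttg1, or 0.15, 0.15 and 0.5 adjusted over the 3. With 3 samples against 3 it cannot give a p below 0.1, so no ratio could pass. The p of 0.1 was already set by the separation of the single genes. The ratios also carry the difference in base composition of their genes. After correction for GC content and length the log2 differences were -0.95, -0.71 and -0.05 in the same order.

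**Figure D3:**
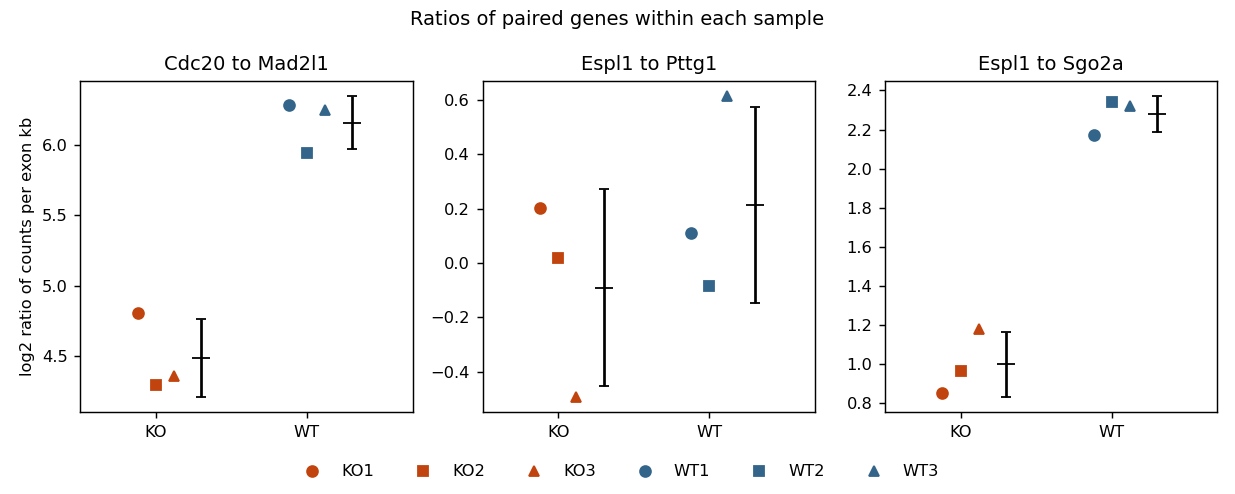
Log2 ratio of counts per exon kilobase between paired genes in each knockout (KO, left) and wild-type (WT, right) sample, with the mean and SD of each group beside it (axes do not start at 0). The knockout and wild-type samples are apart for Cdc20 to Mad2l1 (log2 difference -1.68) and Espl1 to Sgo2a (-1.28) and overlap for Espl1 to Pttg1 (-0.30). Where they are apart, the separation follows from the levels of the single genes.

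The wider pathway was read from 4 lists of 63 genes that act with the 10, of which 62 were tested. Of these, 6 rose and 7 fell, where 3.11% of all genes were called higher and 5.12% lower. Their median log2 fold change was 0.01, against -0.01 over all genes tested, or -0.01 against 0.01 after correction. After correction edgeR called 0 of them and 0.0837% of all genes. DESeq2 called 18 of the 62, 10 as higher and 8 as lower, with 17.3% of all genes it tested. By edgeR before correction the count was 16 without KO2 (14.3% of all genes), 3 without WT3 (1.93%) and 2 without KO3 (1.47%). It was 0 without KO1, WT1 or WT2, where at most 0.0226% of all genes were called. Among 12 checkpoint partners, 0 rose and 1 fell (median 0.04, or -0.03 after correction). That gene was Mad2l1bp, which encodes p31comet, a protein that takes MAD2 out of the inhibitor. It had 7.28, 8.99 and 8.60 CPM in KO1, KO2 and KO3 and 20.6, 15.0 and 14.1 CPM in WT1, WT2 and WT3. Both groups were well apart (log2 fold change -0.998, SE 0.21, edgeR adjusted p = 0.0277, or -0.69 after correction). Ppp1cb, a catalytic subunit of the phosphatase PP1 that silences the checkpoint, had the next smallest p, with 55.2 ± 3.58 CPM in knockout and 41.4 ± 4.77 CPM in wild type (log2 fold change 0.42, edgeR adjusted p = 0.12). After correction it was 0.02 (edgeR adjusted p = 0.967).

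Of 14 APC/C subunits, 1 rose and 3 fell (median -0.13, or -0.21 after correction). Anapc11, the RING subunit that carries the ligase activity, fell to 33.8, 32.5 and 45.2 CPM in KO1, KO2 and KO3, against 81.0, 67.6 and 62.3 CPM in WT1, WT2 and WT3 (log2 fold change -0.92, SE 0.18, edgeR adjusted p = 0.0242). Its catalytic partner, the cullin-like Anapc2, fell to 44.3 ± 4.14 CPM in knockout, against 64.9 ± 1.53 CPM in wild type (-0.55, SE 0.14). Anapc7, of the scaffold of repeat proteins, fell to 23.7 ± 2.77 CPM in knockout, against 36.4 ± 2.11 CPM in wild type (-0.62, SE 0.16). Cdc27, the subunit that docks CDC20, rose to 172 ± 10.2 CPM in knockout, against 118 ± 5.71 CPM in wild type (0.54, SE 0.13). After correction, the log2 fold changes of Anapc11, Anapc2, Anapc7 and Cdc27 were -0.80, -0.28, -0.43 and 0.15.

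Of 12 regulators, ubiquitin-conjugating enzymes and substrates of the APC/C, 0 rose and 2 fell (median -0.07, or 0.08 after correction). Ube2s, the enzyme that extends ubiquitin chains on APC/C substrates, fell to 134.9, 93.1 and 97.6 CPM in KO1, KO2 and KO3, against 251.6, 220.1 and 213.8 CPM in WT1, WT2 and WT3. Its log2 fold change was -1.07 (SE 0.18, edgeR adjusted p = 0.0172) and -1.14 after correction (edgeR adjusted p = 0.0532), at 47.4% exon GC. Fzr1, which encodes CDH1, the other activator of the APC/C, fell to 109 ± 20.9 CPM in knockout, against 191 ± 13.8 CPM in wild type (-0.81, SE 0.17, edgeR adjusted p = 0.028, or -0.38 after correction). Both activators, Cdc20 and Fzr1, thus fell in these samples, before correction. Of the uncalled genes of this list, Ube2d1 and Ccnb1 had the smallest p. Ube2d1, which encodes a ubiquitin-conjugating enzyme, had 13.9, 5.33 and 9.64 CPM in KO1, KO2 and KO3 and 2.64, 5.27 and 3.52 CPM in WT1, WT2 and WT3. Every knockout sample was above every wild-type sample, KO2 by little. Its log2 fold change was 1.33 (SE 0.38, edgeR adjusted p = 0.0638), and 1.18 after correction (edgeR adjusted p = 0.134). It was called by DESeq2 (adjusted p = 0.00433) and without KO2 (edgeR adjusted p = 0.019). Ccnb1, the cyclin B1 gene and a substrate of CDC20, stood at 69.3 ± 17.3 CPM in knockout and 112 ± 25.7 CPM in wild type and did not pass the test (log2 fold change -0.70, edgeR adjusted p = 0.0874, or -0.89 after correction with 0.0732). It too was called by DESeq2 (adjusted p = 0.0463) and without KO2 (edgeR adjusted p = 0.0276).

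The list of cohesin and its protection held 25 genes, of which 24 were tested, 5 rose and 1 fell. Its median log2 fold change was 0.28, and 0.08 after correction. Of all genes tested, 3.11% were called higher and 5.12% lower. The 5 that rose were Smc1b (1.05, SE 0.14), a meiotic cohesin subunit, Nipbl (0.82, SE 0.16), the cohesin loader, Smc3 (0.82, SE 0.18) and Stag2 (0.73, SE 0.15), subunits of the ring, and Pds5b (0.61, SE 0.14), a regulator of its release. Smc1b had 276.8, 240.6 and 235.1 CPM in KO1, KO2 and KO3 and 109.3, 120.7 and 132.5 CPM in WT1, WT2 and WT3. Mau2, the partner of NIPBL, fell to 41.3 ± 3.38 CPM in knockout, against 68.2 ± 3.70 CPM in wild type (-0.72, SE 0.14, or -0.73 after correction). The exon GC content of the 5 genes that rose was 39.8% to 42.4%, and their log2 fold changes after correction were 0.71, 0.52, 0.56, 0.33 and 0.18 in the order named, none of them called. Of all tested genes with 35 to 45% exon GC, 8.02% were called higher before correction. The other shugoshin genes did not pass or were not tested. Sgo1 stood at 3.42 ± 0.789 CPM in knockout and 2.14 ± 0.560 CPM in wild type (log2 fold change 0.67, edgeR adjusted p = 0.184, or 0.44 after correction), and Sgo2b was too low to test.

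**Figure D4:**
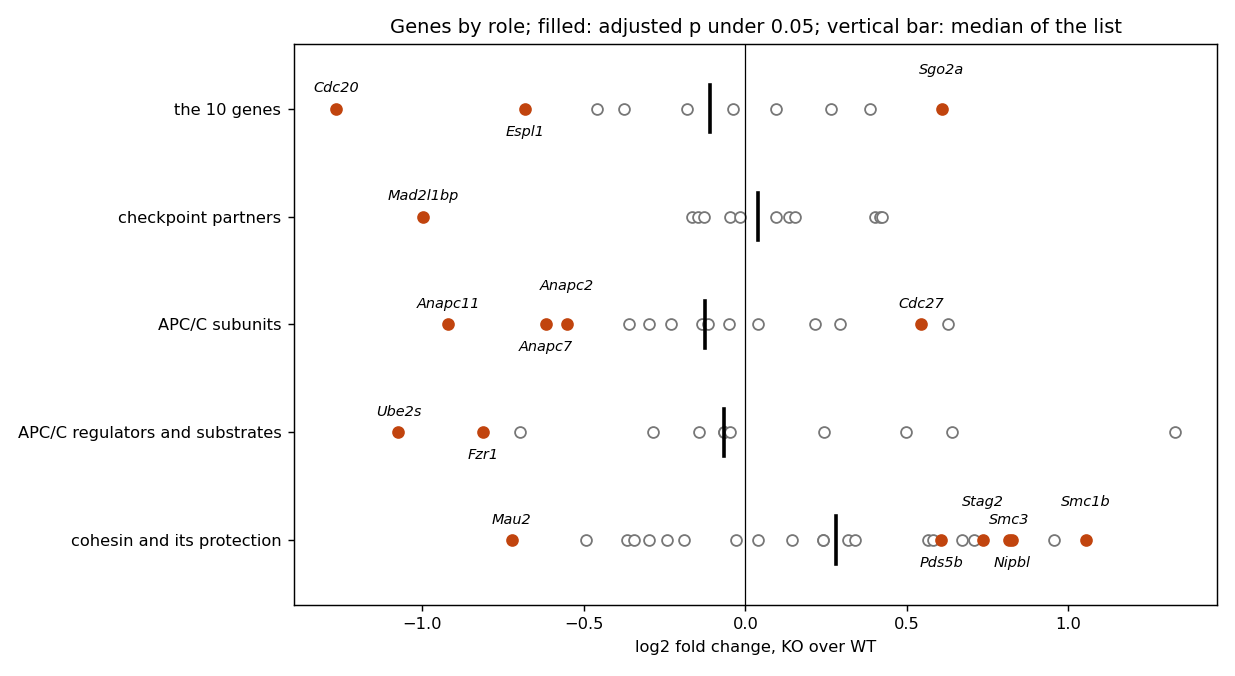
Log2 fold change of knockout over wild type for the 10 genes and for the tested genes of 4 pathway lists, 1 row per list. Filled points are named and passed an edgeR adjusted p of 0.05, and black bars mark the median of each list, from -0.13 for APC/C subunits to 0.28 for cohesin and its protection. All values shown are before correction for GC content and length, after which these 2 medians were -0.21 and 0.08.

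Markers of the cell types of the testis were read beside these values, with the calls made before correction. After correction edgeR called 0 markers of these lists and 0.0837% of all genes, against 8.23% of all genes before it. The summed level of 8 spermatogonial markers, led by Dmrtb1, was 648 to 1932 CPM in knockout and 876 to 1054 CPM in wild type, and none was called by edgeR or DESeq2. Dmrtb1 alone stood at 556 to 1830 CPM in knockout and 774 to 950 CPM in wild type. This sum therefore says little about the other markers of the list. The 10 spermatocyte markers, led by Ldhc, summed to 3634 to 4905 CPM in knockout and 4317 to 6081 CPM in wild type, and 2 of them rose (Sycp1 and Mybl1) and 1 fell (Pou5f2). Ldhc alone carried much of this sum, at 2370 to 3525 CPM in knockout and 3080 to 4658 CPM in wild type. The 8 round spermatid markers, led by Spata18, summed to 1496 to 2182 CPM in knockout and 1295 to 1385 CPM in wild type. Of these, 2 rose (Tex29 and Spaca7) and 1 fell (Lyzl6), and the summed levels of the groups did not overlap. Spata18 alone carried much of the sum, at 807 to 1084 CPM in knockout and 649 to 789 CPM in wild type. Of the 8 round spermatid markers, 7 had a positive and 1 a negative log2 fold change. The 8 elongating spermatid markers, led in abundance by Prm2, summed to 16787 to 27777 CPM in knockout and 21784 to 23365 CPM in wild type, with 1 that rose (Smcp) and 2 that fell (Prm1 and Tnp2). Their sum overlapped between the groups, but Prm2 itself did not, at 2637 to 4063 CPM in knockout and 5065 to 5958 CPM in wild type. Prm2 was not called by edgeR. Of the 8 markers, 5 had a negative and 3 a positive log2 fold change.

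Somatic cells and possible other tissue were read in the same way. The 10 Sertoli cell markers, led by Clu, summed to 1412 to 2108 CPM in knockout and 1062 to 1471 CPM in wild type, and 1 rose (Rhox8). Clu alone carried much of this sum, at 858 to 1364 CPM in knockout and 600 to 880 CPM in wild type. The 8 Leydig cell markers, led by Insl3, summed to 1150 to 1750 CPM in knockout and 640 to 1413 CPM in wild type. The 6 myoid markers, led by Acta2, summed to 176 to 250 CPM in knockout and 147 to 209 CPM in wild type. Immune markers, 8 in all and led by Mrc1, summed to 64.8 to 91.5 CPM in knockout and 43.8 to 84.1 CPM in wild type. Endothelial markers, 6 in all and led by Vwf, summed to 42.1 to 51.5 CPM in knockout and 27.1 to 57.5 CPM in wild type. No Leydig, myoid, immune or endothelial marker was called by edgeR, while DESeq2 called 2 Leydig markers. DESeq2 also called 3 Sertoli markers, all as higher. It called 3 higher and 1 lower among the spermatocyte and likewise among the round spermatid markers. Among the elongating spermatid markers it called 1 higher and 3 lower. Of 8 markers of epididymis and blood, led by Hbb-bs, 3 epididymal ones (Lcn5, Adam28 and Crisp1) held 0 counts in every library and 1 blood marker, Alas2, fell. That list summed to 29.5 to 47.0 CPM in knockout and 47.3 to 84.6 CPM in wild type, with KO2 only just below WT1. Only 3 of the 8 markers were tested. Hbb-bs itself overlapped, at 9.73 to 17.9 CPM in knockout and 15.7 to 33.2 CPM in wild type. The part of these differences in the levels of the 10 genes was not tested.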

How the data were processed

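Bulk RNA was sequenced from 3 KIFC1 knockout and 3 wild-type testis samples. The authors deposited raw counts per Ensembl gene, 1 file per sample, not normalized. The submitters' processing notes name Trimmomatic, HISAT2, HTSeq and the build mm10. Versions, annotation release and strand setting: not given in the sources used here. Symbols, spans, exon length and exon GC content came from GENCODE M21 (GRCm38), which matched 51633 of 51826 identifiers.

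Counts were tested with edgeR 4.0.16 (R 4.3.3), a quasi-likelihood test with TMM scaling and filterByExpr, on all 6 samples without covariates, with Benjamini-Hochberg adjustment over 21518 genes and a threshold of 0.05. Each SE is the log2 fold change divided by the root of its F. Trends with GC content and length were removed by offsets from splines with 5 degrees of freedom, fitted to 12751 genes with a mean log2 CPM above 2. The other alternatives were DESeq2 1.42.0, other scalings and filters, a replicate block, mitochondrial genes left out, and each sample left out, also with the offsets, the last added after the data were seen. Copies were sought among transcripts by blastn (at least 85% identity over 400 bases). Libraries of 1 group differed by more than sampling noise (chi-square over its degrees of freedom 15.43 to 135.1).

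The genes, the lists and the tests were chosen with earlier results of these data known. The text names all 10 genes, Kifc1, in each pathway list every called gene and those with the 2 smallest p values, copies and overlapping genes, and the most abundant gene of each marker list. Sgo1, Ube2d1, Ccnb1, the called markers and the promoter elements were chosen after values were seen.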

Additional observations from a re-analysis of the deposited data

How the results depend on the processing

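The 3 calls among the 10 genes became 0 with the replicate block, with the GC offsets, with the GC and length offsets, and with the block and those offsets together, and between 0 and 3 with a sample left out (3 without KO2, 1 without WT3, otherwise 0). With the offsets and a sample left out they ran from 0 to 2, the 2 being Cdc20 and Espl1 without KO2. The 13 calls in the pathway lists became 0 under the same 4 settings and 0 to 16 with a sample left out, or 0 to 9 with the offsets as well. Over all genes the 1770 calls became 1010 with no filter, 3284 with DESeq2, 21 with the replicate block, 8 with the GC offsets, 18 with the GC and length offsets and 5 with the block and these offsets. They ran from 1 to 3149 with a sample left out, and from 0 to 2909 with the offsets as well. The cause was not tested.

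The log2 fold change of Bub1 turned to -0.25, -0.21 and -0.20 with the GC offsets, with the GC and length offsets and with the block added. With these offsets it was -0.16, -0.22 and -0.24 without KO1, KO2 and KO3 and -0.14, -0.20 and -0.28 without WT1, WT2 and WT3. That of Mad1l1 turned to 0.27 in each of the first 3 of these settings. With a sample left out it ran from -0.18 to 0.14, with 0.14 without KO2 and 0.05 without WT1, and with the offsets it was 0.27, 0.38 and 0.18 without KO1, KO2 and KO3 and 0.37, 0.26 and 0.19 without WT1, WT2 and WT3. With the offsets and without KO3 or WT3, Mad2l1 stood at -0.0507 and -0.13 and Ppp1cb at -0.0636 and -0.12. No value of Cdc20, Espl1 or Sgo2a changed sign in the alternatives run for it, and the 3 ratios kept theirs.

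The labels do not say that replicate numbers pair samples, and same-numbered samples did not deviate together (r = -0.286, -0.0558 and -0.126), so the numbers are not treated as pairs. Under the replicate block Cdc20 had an edgeR adjusted p of 0.0632. Depth was not limiting for the 10 genes, which held at least 347 counts in each library.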
